A study of Mus musculus with 12 samples.

Results

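The genes described here are 10 members of the Notch pathway: the receptors Notch1, Notch2 and Notch3, the ligands Dll1, Dll3 and Jag1, and the target genes Hes1, Hes5, Hey1 and Heyl. They were chosen by gene name among the 55357 genes of the count files, and each name matched 1 row in each of the 12 files. RNA was sequenced from mouse cortex with hippocampal formation at postnatal day 5, cut into a caudal and a rostral piece, which gave 2 libraries per animal. The cKO animals (T3, T6 and T80; Nes:F/F or NcreEGFRFF in the labels) carried 2 floxed alleles of Egfr, the epidermal growth factor receptor, and a Nestin-driven recombinase. The controls (T4, T8 and T70) are EgfrF/+ in the protocol and WT in the genotype label. The labels do not say whether the controls carried the recombinase, so loss of Egfr and presence of the recombinase cannot be told apart. Nestin drives the recombinase in neural progenitors, so neurons and macroglia descend from recombined cells, while vessels, meninges and microglia arise mostly from other lineages. By Xist and Y-linked transcripts, the cKO animals were 1 female and 2 males and the controls 2 females and 1 male.

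A Notch receptor is cut when a ligand on a neighbouring cell binds it, and its inner part then moves to the nucleus. There it joins the DNA-binding protein RBPJ and switches on Hes and Hey genes, whose products repress the proneural genes that push progenitors to become neurons. In the forebrain the pathway is known for keeping radial glia and neural stem cells undifferentiated and for favouring astrocytes. In vessels it acts in endothelial cells and in the mural cells (pericytes and smooth muscle) that surround them.

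Hes5 is the textbook readout of Notch signalling in neural progenitors, and its promoter shows the sequence through which RBPJ is known to act. Among the 7 members with a promoter window in RefSeq (GRCm38.p6, 250 bases before to 50 after the gene start), it was the 1 member that held the RBPJ core TGGGAA on either strand. The Hes5 window lies at chr4:154960673-154960972 on the plus strand, and capitals mark the 2 matches, which begin 226 and 82 bases before the gene start.
Hes5: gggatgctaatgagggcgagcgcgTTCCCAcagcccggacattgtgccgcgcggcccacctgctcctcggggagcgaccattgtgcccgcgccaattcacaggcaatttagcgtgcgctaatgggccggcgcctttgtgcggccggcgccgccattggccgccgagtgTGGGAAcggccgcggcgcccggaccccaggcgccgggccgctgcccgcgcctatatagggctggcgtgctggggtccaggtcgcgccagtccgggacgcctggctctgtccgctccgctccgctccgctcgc
The first match is on the minus strand and reads as the reverse complement. Of 32851 RefSeq promoter windows of this length, 25.6% held TGGGAA on either strand. The E box CACGTG was in none of the members' windows, against 7.15% of all windows. The N box CACNAG, a site that Hes proteins can bind, was in windows of Notch1, Notch2, Notch3 and Dll1, against 42.5% of all windows. Hes1, Hey1 and Heyl were not in the promoter table.

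Total counts ran from 43810458 to 87170315 per library. Egfr was at 5.81 to 14.6 CPM (TMM-scaled counts relative to library size, over all 12 libraries) in cKO libraries and at 39.1 to 48.9 CPM in control libraries, and it fell on summed counts with a log2 fold change of -2.10 (SE 0.11, edgeR adjusted p = 0.0019). Within a piece Egfr did not pass. Its log2 fold change was -2.14 in rostral (SE 0.25, edgeR adjusted p = 0.186) and -2.05 in caudal cortex (SE 0.31, edgeR adjusted p = 0.102). The tests within a piece thus did not call even a fall of this size. The T6 rostral library stood apart. Its median absolute deviation from the mean of the rest of its group was 0.402 in log2 CPM. Over the other 11 libraries this deviation ran from 0.0922 to 0.247, with 0.202 for T3 caudal. The median deviation of the members was -0.55 in T6 rostral, 0.46 in T3 rostral and -0.30 in T3 caudal. Mitochondrial genes held 8.18% of the counts of the T6 rostral library, against 1.85% to 3.98% in the other 11 libraries. The 13 mitochondrially encoded protein genes had fold changes above 0 in cKO in both pieces, with 0 called by edgeR and 12 at an unadjusted p under 0.05 on summed counts. They summed to 19811 to 35081 CPM in cKO and 15253 to 19575 CPM in control caudal cortex, and to 32965 to 91674 CPM in cKO and 22885 to 31780 CPM in control rostral cortex, with no overlap between the genotypes in either piece. Between the control pieces 11 of the 13 were called lower in caudal cortex. Their part in the genotype and regional values of the Notch genes was not tested. The meningeal fibroblast markers summed to 30.0 CPM in the T6 rostral library and to 119 CPM in the caudal library of T3, against 158 to 763 CPM in the other 10. The 2492 genes that differed between the control pieces gave each library a score, with control caudal cortex averaging 1 and control rostral cortex 0. Rostral cKO libraries scored 0.855 for T3, -0.0791 for T6 and 0.639 for T80. Caudal cKO libraries scored 0.563 for T3, 1.15 for T6 and 0.810 for T80. Values without T6 or T3 are given beside the results they change most.

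All 10 genes were expressed in every library and passed the filter on low counts in every comparison. Their order is read from CPM per kilobase of exonic length, a level. Hey1 was highest at 7.26 ± 1.30 CPM per kb (SD, n = 12 libraries), and Hes5 followed at 6.70 ± 1.96. Hey1 was above Hes5 in 7 of 12 libraries, so no order of this pair held over all groups. Hey1 and Hes5 averaged 8.90 and 6.75 CPM per kb in control rostral cortex, with Hey1 above in each library. In control caudal cortex they averaged 7.78 and 8.98, with Hey1 below in each library. The cKO averages were 5.86 and 4.80 in rostral and 6.51 and 6.27 in caudal cortex. The 3 receptors came next, with Notch1 at 3.87 ± 0.641, Notch3 at 3.74 ± 0.902 and Notch2 at 3.57 ± 1.10 CPM per kb. Notch1 was above Notch3 in 6 of 12 libraries and Notch3 above Notch2 in 5, so no order among the receptors is given over all groups. In each control rostral library Notch3 was above Notch1 and Notch1 above Notch2, with means of 4.52, 4.29 and 2.98 CPM per kb. The same means were 4.05, 3.72 and 4.07 in control caudal cortex. Hes1 was at 2.96 ± 0.356 and Dll1 at 2.42 ± 0.489 CPM per kb, and Hes1 was above Dll1 in 11 of 12 libraries. Jag1 at 1.96 ± 0.435 and Heyl at 1.94 ± 0.381 CPM per kb were not separated. Dll3 was lowest at 0.769 ± 0.181 CPM per kb, below Heyl in 12 of 12 libraries, and rested on 77 to 224 counts per library.

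**Figure D1:**
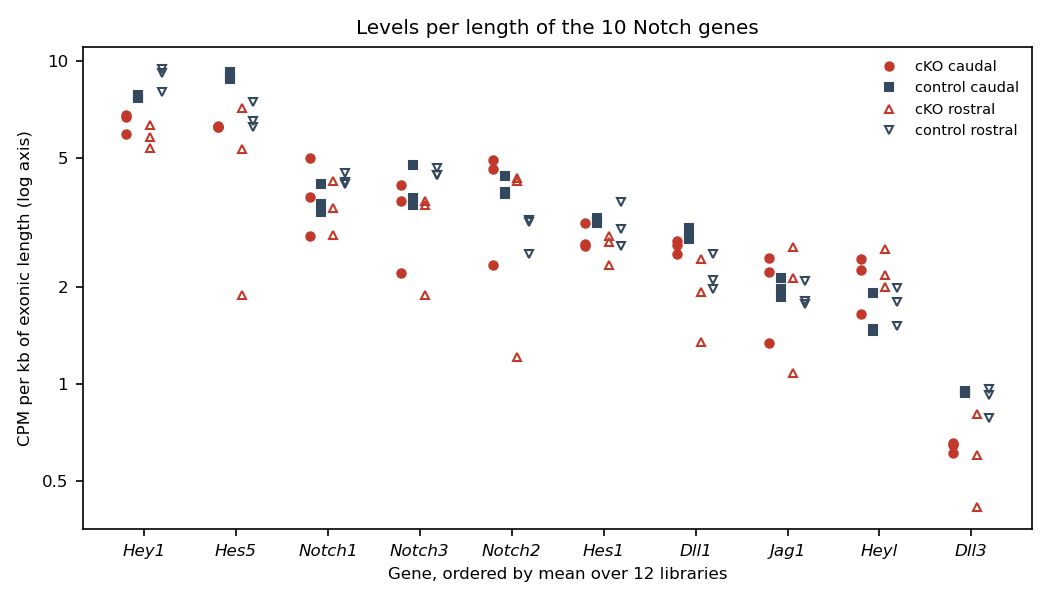
Level of each gene in each library as CPM per kilobase of exonic length (log axis), ordered by the mean over 12 libraries. Red symbols are cKO and dark blue-grey symbols control libraries, filled for caudal and open for rostral pieces. Hey1 and Hes5 lie at the top and Dll3 at the bottom, and the cKO rostral library of T6 gives the low open symbol of Hes5 (1.88) and Notch2 (1.21).

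The first comparison asks whether the pathway's transcripts differed between cKO and control animals. The values behind it are shown as CPM over all 12 libraries, while each test was scaled within its own libraries. Sums per animal were of raw counts, so the deeper library of an animal weighs more. Rostral and caudal totals were 72128097 and 43810458 in T3, 87170315 and 67193988 in T6, and 54680742 and 82056983 in control T4. T80, T8 and T70 were closer to even. What this weighting contributed to the summed values was not tested. On the counts of both pieces summed per animal, 5 of 10 genes had groups that did not overlap: Notch3, Dll3, Hes5 and Hey1 on the lower side and Heyl on the higher side. Groups did not overlap for 25.9% of all genes tested, 13.4% lower and 12.5% higher. None of the 10 passed an adjusted p under 0.05 in edgeR's quasi-likelihood test with Benjamini-Hochberg adjustment, where 41 of 22924 genes (0.179%) passed. At an unadjusted p under 0.05 there were 5 of 10 members, against 15.4% of all genes, and DESeq2 called 4 members, against 3.72% of genes. In caudal cortex edgeR called 0 members (0.0821% of all genes), 3 had an unadjusted p under 0.05 (14.5% of all) and DESeq2 called 1 (2.83% of all). In rostral cortex edgeR called 0 members and 0% of genes, 1 member had an unadjusted p under 0.05 (9.49% of all) and DESeq2 called 1 (1.91% of all). Egfr itself was not called by edgeR in either piece. Groups did not overlap for 4 of 10 members in caudal cortex, all lower (22.6% of all genes, 11.3% lower and 11.3% higher). In rostral cortex this held for 3 of 10, with 2 lower and 1 higher (19.7% of all genes, 9.89% lower and 9.76% higher). The median log2 fold change of the 10 was -0.19 on summed counts, -0.14 in caudal and -0.24 in rostral cortex, where all genes had medians of 0.02, 0.00 and 0.04. Without T6, edgeR called 2 members on summed counts (Dll3 and Hey1), 1 in caudal cortex (Hes5) and 3 in rostral cortex (Notch2, Notch3 and Hey1). Over all genes the same fits called 685, 162 and 1058. The cKO rostral libraries left without T6 were those of T3 and T80, with regional scores of 0.855 and 0.639.

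**Figure D2:**
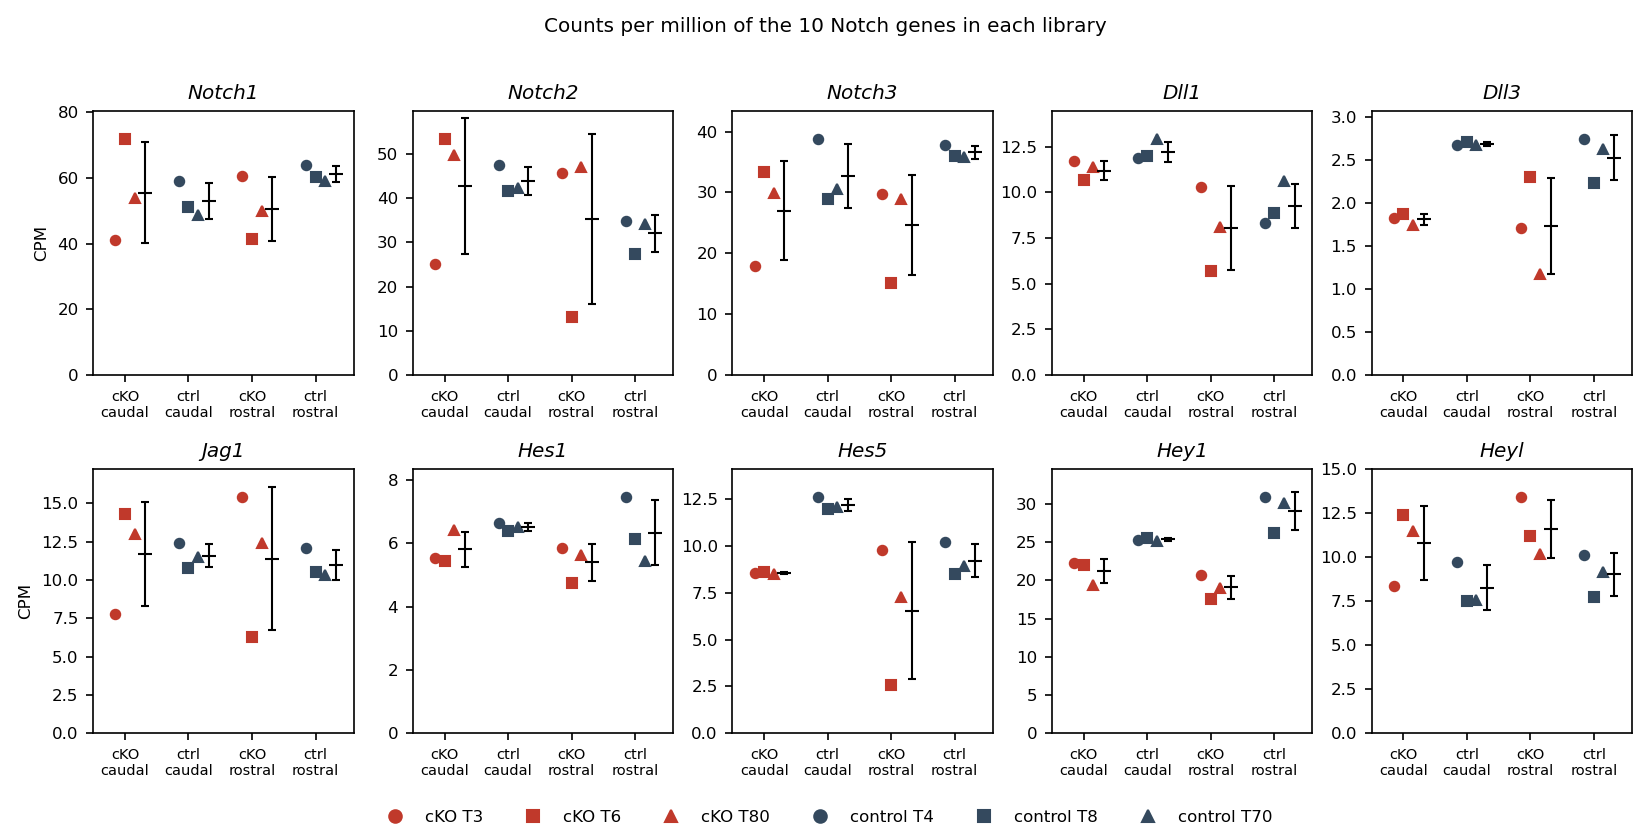
CPM of each gene in each library, one panel per gene with its own axis from 0. Columns are cKO and control caudal, then cKO and control rostral pieces, symbols mark animals, and bars give the mean ± SD of the 3 libraries of a group. Hey1 in both pieces and Hes5 in caudal cortex lie lower in every cKO library than in every control library of the same piece, and the cKO rostral library of T6 (red square) is low for Notch2, Notch3, Jag1 and Hes5.

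Among the ligands, Dll3 had the largest fold changes between the genotypes. Dll3 (ENSMUSG00000003436.12, chromosome 7, 27992978 to 28001663, GRCm39) encodes a divergent Delta protein that is known to dampen Notch signalling within the cell that makes it. In caudal cortex it was at 1.83, 1.87 and 1.74 CPM in cKO animals T3, T6 and T80, against 2.67, 2.71 and 2.68 CPM in controls T4, T8 and T70. Every cKO value lay below every control value, with a log2 fold change of -0.56 (SE 0.14, edgeR adjusted p = 0.176). In rostral cortex it was at 1.71, 2.30 and 1.18 CPM in the same cKO animals, against 2.74, 2.23 and 2.63 CPM in the controls. T6 at 2.30 CPM lay within the control range there, and the log2 fold change was -0.54 (SE 0.27, edgeR adjusted p = 0.548), with -0.79 without T6 and -0.33 without T80. On summed counts the fold change was -0.56 (SE 0.16, edgeR adjusted p = 0.209), and without T6 it was -0.69 with an edgeR adjusted p of 0.0415. DESeq2 gave an adjusted p of 0.041 with all animals.

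Dll1 (ENSMUSG00000014773.14, chromosome 17, 15587616 to 15597134), the activating ligand of neural progenitors and young neurons, was at 11.7, 10.7 and 11.4 CPM in cKO caudal cortex (T3, T6, T80), against 11.9, 12 and 12.9 CPM in control caudal cortex (T4, T8, T70). The groups did not overlap, but the log2 fold change was small at -0.12 (SE 0.09, edgeR adjusted p = 0.579). In rostral cortex Dll1 was at 10.3, 5.70 and 8.13 CPM in cKO, against 8.32, 8.86 and 10.6 CPM in control, and the groups overlapped. Jag1 (ENSMUSG00000027276.8, chromosome 2, 136923376 to 136958564), a ligand of the Serrate class made by vessels, meninges and some progenitors, was at 7.80, 14.3 and 13 CPM in cKO caudal cortex, against 12.4, 10.8 and 11.5 CPM in control. In rostral cortex it was at 15.4, 6.30 and 12.4 CPM in cKO, against 12.1, 10.5 and 10.3 CPM in control. The 2 lowest Jag1 values of all 12 libraries were those of the T6 rostral and T3 caudal libraries, and its log2 fold change on summed counts was 0.06 (SE 0.12).

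Marker lists of cells that can make Delta ligands are given beside these values. Among markers of oligodendrocyte precursors, 9 of 10 had a fold change below 0 in each piece, and edgeR called 1 lower in caudal and 0 in rostral cortex (7 and 5 at an unadjusted p under 0.05). They summed to 692 to 712 CPM in cKO and 817 to 904 CPM in control caudal cortex, and to 616 to 779 CPM in cKO and 944 to 987 CPM in control rostral cortex. Of the proneural list of intermediate progenitors and newborn neurons, 7 of 8 tested genes had a fold change above 0 in caudal and 8 of 8 in rostral cortex, and edgeR called 0 in either piece (6 in caudal and 4 in rostral cortex at an unadjusted p under 0.05). This list summed to 99.6 to 152 CPM in cKO and 70.5 to 90.0 CPM in control caudal cortex, and to 66.4 to 88.8 CPM in cKO and 43.9 to 52.3 CPM in control rostral cortex. On counts summed per animal, edgeR called 2 of the 10 precursor markers lower and 2 of the 8 proneural genes higher, against 0.179% of all genes. No tested gene of these lists was at 0 in any library, and their part in the ligand values was not tested. In bulk tissue, fewer cells of a type and less RNA per cell cannot be told apart.

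Of the receptors, Notch3 had the lowest p between the genotypes in each piece and on summed counts, without passing. Notch3 (ENSMUSG00000038146.9, chromosome 17, 32339794 to 32385826), the receptor best known from mural cells of vessels, was at 29.7, 15.2 and 29.0 CPM in cKO rostral cortex (T3, T6, T80), against 37.8, 36.0 and 35.9 CPM in control (T4, T8, T70). All 3 cKO values lay below the controls, with a log2 fold change of -0.56 (SE 0.25, edgeR adjusted p = 0.529), and T6 was the lowest. Without T6 the fold change was smaller, at -0.31 (SE 0.06), and passed (edgeR adjusted p = 0.0398). In caudal cortex Notch3 was at 17.9, 33.3 and 29.9 CPM in cKO, against 38.7, 28.9 and 30.5 CPM in control, so the groups overlapped. There the log2 fold change was -0.27 (SE 0.23, edgeR adjusted p = 0.628) and -0.05 without T3. On summed counts Notch3 was at 26.2 ± 3.07 CPM in cKO and 34.7 ± 3.25 CPM in control animals (SD, n = 3 each), a log2 fold change of -0.41 (SE 0.11, edgeR adjusted p = 0.191, DESeq2 adjusted p = 0.0307).

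Notch1 (ENSMUSG00000026923.16, chromosome 2, 26347915 to 26406675), the receptor of neural progenitors and endothelium, was at 60.6, 41.3 and 49.9 CPM in cKO rostral cortex, against 63.9, 60.2 and 59.1 CPM in control. In caudal cortex it was at 41.0, 71.7 and 54.0 CPM in cKO, against 59.1, 51.2 and 48.7 CPM in control. In caudal cortex the cKO values lay on both sides of the control values, and in rostral cortex 2 lay below them and T3 within their range. Summed per animal the log2 fold change was -0.09 (SE 0.07, edgeR adjusted p = 0.544). Notch2 (ENSMUSG00000027878.12, chromosome 3, 97920843 to 98057677), a receptor of progenitors, glia and meningeal cells, had the widest spread of the receptors. It was at 45.8, 13.1 and 47.0 CPM in cKO rostral cortex, against 34.8, 27.3 and 34.2 CPM in control, and at 25.2, 53.3 and 49.8 CPM in cKO caudal cortex, against 47.6, 41.7 and 42.3 CPM in control. In rostral cortex its log2 fold change was 0.15 (SE 0.44, edgeR adjusted p = 0.897), and without T6 it was 0.54 (SE 0.11, edgeR adjusted p = 0.0351). The cKO rostral libraries left there, T3 and T80, had regional scores of 0.855 and 0.639, where control rostral cortex averaged 0. Their Notch2 levels lay within the control caudal range of 41.7 to 47.6 CPM, and the part of piece position was not tested. In caudal cortex the Notch2 fold change was -0.03 (SE 0.27) with all animals and 0.24 without T3.

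The 2 libraries low in Notch2 were those low in meningeal markers. The meningeal fibroblast list summed to 483, 30.0 and 636 CPM in cKO rostral cortex (T3, T6, T80), against 353, 158 and 298 CPM in control (T4, T8, T70), and to 119, 595 and 763 CPM in cKO caudal cortex, against 507, 416 and 502 CPM in control. Its defining markers Dcn and Col1a1 were at 0.849 and 4.01 CPM at the least, in cKO rostral cortex. For Notch3, the endothelial list was likewise lowest in the T6 rostral (200 CPM) and T3 caudal (224 CPM) libraries, against 271 to 355 CPM in the other 10. The mural list overlapped between the genotypes in both pieces. It summed to 278 to 350 CPM in cKO and 247 to 323 CPM in control rostral cortex, and to 241 to 384 CPM in cKO and 239 to 322 CPM in control caudal cortex. In the T6 rostral and T3 caudal libraries it was at 278 and 241 CPM, within the control range of each piece. The mural list thus did not share the low of the endothelial list there. The part of these cells in the receptor values was not tested.

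**Figure D3:**
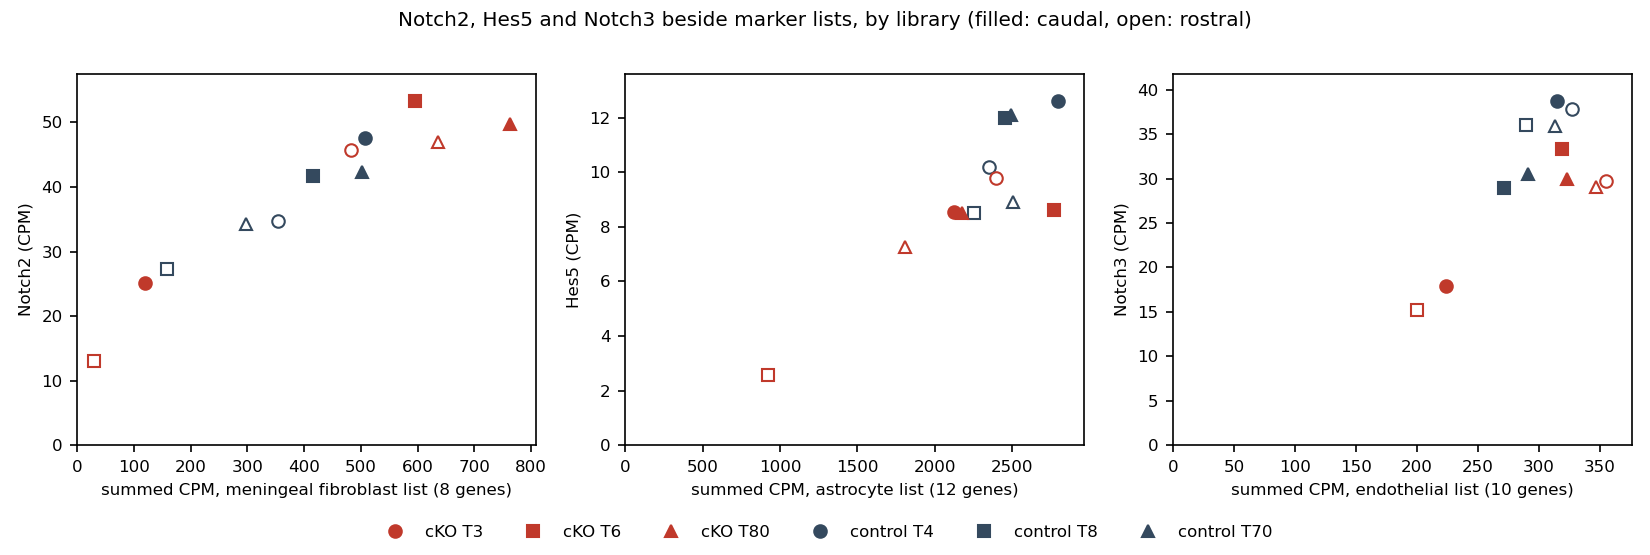
Each point is a library: CPM of Notch2, Hes5 and Notch3 against the summed CPM of the meningeal fibroblast, astrocyte and endothelial marker lists. Filled symbols are caudal and open symbols rostral pieces, red cKO and dark blue-grey control. The T6 rostral library (open red square) is lowest on both axes of every panel. The mural list, not drawn, was at 278 CPM in that library, within the control rostral range of 247 to 323 CPM.

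The target genes held the lowest p-values of the 10, for Hey1 and Hes5. Hey1 (ENSMUSG00000040289.9, chromosome 3, 8728419 to 8732316), a basic helix-loop-helix repressor of vessels and neural progenitors, was at 20.7, 17.6 and 19.0 CPM in cKO rostral cortex (T3, T6, T80), against 30.9, 26.2 and 30.1 CPM in control (T4, T8, T70). Every cKO value lay below every control value, with a log2 fold change of -0.59 (SE 0.11, edgeR adjusted p = 0.31, DESeq2 adjusted p = 0.00117). Without T6 it was -0.54 and passed in edgeR (adjusted p = 0.0239). In caudal cortex Hey1 was at 22.3, 22.0 and 19.4 CPM in cKO, against 25.3, 25.6 and 25.2 CPM in control. These groups did not overlap either, at a smaller log2 fold change of -0.25 (SE 0.08, edgeR adjusted p = 0.254). On summed counts it was at 20.0 ± 1.13 CPM in cKO and 27.0 ± 0.925 CPM in control animals (SD, n = 3 each), a log2 fold change of -0.43 (SE 0.07, edgeR adjusted p = 0.084, DESeq2 adjusted p = 9.27e-05).

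Hes5 (ENSMUSG00000048001.8, chromosome 4, 155045380 to 155046828), whose promoter is printed above, had a narrow spread in caudal cortex. There it was at 8.53, 8.61 and 8.50 CPM in cKO, against 12.6, 12 and 12.1 CPM in control. The groups lay apart with a log2 fold change of -0.51 (SE 0.09, edgeR adjusted p = 0.0906, DESeq2 adjusted p = 6.08e-05), and edgeR called Hes5 without T6 (adjusted p = 0.0388). In rostral cortex it was at 9.78, 2.56 and 7.27 CPM in cKO, against 10.2, 8.52 and 8.91 CPM in control. The groups overlapped there and T6 was the lowest library, with a log2 fold change of -0.48 (SE 0.44, edgeR adjusted p = 0.662) that became -0.10 without T6 and -0.90 without T3. On summed counts Hes5 had a log2 fold change of -0.52 (SE 0.19, edgeR adjusted p = 0.276), with -0.33 without T6 and -0.70 without T3.

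Hes1 (ENSMUSG00000022528.9, chromosome 16, 29883202 to 29886614), the paralogous repressor with a broad expression, was at 5.55, 5.45 and 6.43 CPM in cKO caudal cortex, against 6.65, 6.41 and 6.53 CPM in control. In rostral cortex it was at 5.85, 4.74 and 5.63 CPM in cKO, against 7.46, 6.13 and 5.43 CPM in control. Both pairs of groups overlapped, and the log2 fold change on summed counts was -0.19 (SE 0.12, edgeR adjusted p = 0.434). Heyl (ENSMUSG00000032744.5, chromosome 4, 123127349 to 123143668), a Hey-family repressor found in mural cells, ran the other way. It was at 13.4, 11.2 and 10.2 CPM in cKO rostral cortex, against 10.1, 7.74 and 9.18 CPM in control, and at 8.38, 12.4 and 11.5 CPM in cKO caudal cortex, against 9.75, 7.48 and 7.58 CPM in control. The rostral groups did not overlap by a narrow margin and the caudal groups overlapped. On summed counts Heyl had a log2 fold change of 0.40 (SE 0.11, edgeR adjusted p = 0.215, DESeq2 adjusted p = 0.0439).

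The astrocyte list is given beside Hes5 and Hey1. Of its 12 genes, 11 had a fold change below 0 in each piece, and edgeR called 1 lower in caudal and 0 in rostral cortex (6 and 5 at an unadjusted p under 0.05), with a median log2 fold change of -0.40 in caudal and -0.88 in rostral cortex. The list summed to 2126, 2773 and 2177 CPM in cKO caudal cortex (T3, T6, T80), against 2796, 2452 and 2491 CPM in control (T4, T8, T70), and to 2396, 921 and 1809 CPM in cKO rostral cortex, against 2348, 2255 and 2504 CPM in control. On counts summed per animal, edgeR called 2 of the 12 genes lower, against 0.179% of all genes. The summed levels of the list overlapped between the genotypes in both pieces. Its member Aqp4, the astrocyte water channel, was at 115 to 184 CPM in cKO and 211 to 239 CPM in control caudal cortex. The radial glia list, which holds stem cell genes that astrocytes also express, was below 0 for 4 of 10 genes in caudal and 5 of 10 in rostral cortex. The part of these cells in the Hes5 and Hey1 values was not tested.

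**Figure D4:**
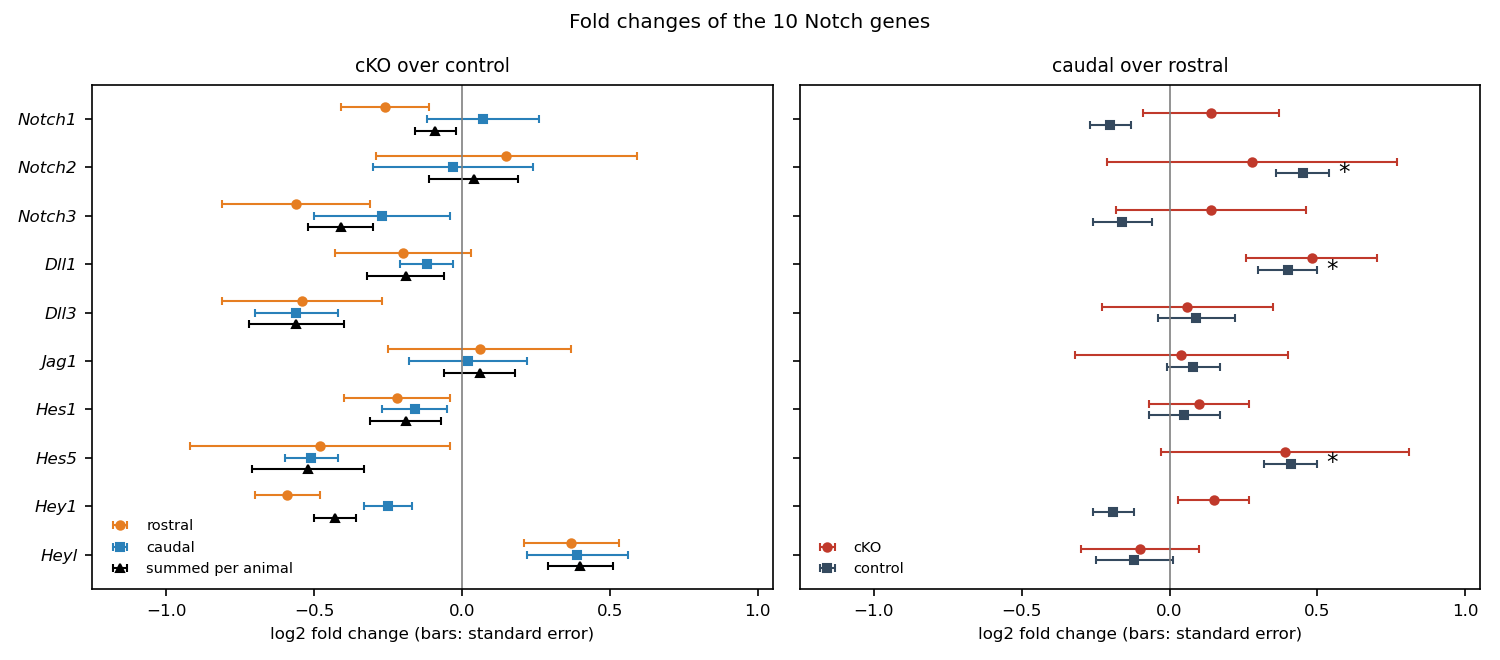
Log2 fold changes with standard errors from edgeR, for cKO over control (left panel: rostral, caudal and summed per animal) and for caudal over rostral (right panel: cKO and control). An asterisk marks an adjusted p under 0.05. Asterisks stand beside Notch2, Dll1 and Hes5 in control animals and beside no gene in the left panel.

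The second comparison asks which of the genes differed between the caudal and the rostral piece. In control animals, Notch2, Dll1 and Hes5 were higher in caudal cortex and passed. These are 3 of 10 members, where 6.30% of all genes passed on the higher side and 12.2% in either direction. None of the 10 passed on the lower side in edgeR, where 5.88% of all genes did. DESeq2 called the same 3 (13.8% of all genes), and 5 of 10 had an unadjusted p under 0.05 in edgeR (25.8% of all), Notch1 and Hey1 on the lower side. Groups did not overlap for 4 of 10 members (31.4% of all genes): these 3 on the higher side (16.4%) and Hey1 on the lower side (15.0%). Hes5 was at 12.6, 12 and 12.1 CPM in caudal and 10.2, 8.52 and 8.91 CPM in rostral cortex of T4, T8 and T70, a log2 fold change of 0.41 (SE 0.09, edgeR adjusted p = 0.0107). Dll1 was at 11.9, 12 and 12.9 CPM in caudal and 8.32, 8.86 and 10.6 CPM in rostral cortex, a log2 fold change of 0.40 (SE 0.10, edgeR adjusted p = 0.0247). Notch2 was at 47.6, 41.7 and 42.3 CPM in caudal and 34.8, 27.3 and 34.2 CPM in rostral cortex, a log2 fold change of 0.45 (SE 0.09, edgeR adjusted p = 0.0142). As their groups did not overlap, all 3 genes were necessarily higher in the caudal piece in 3 of 3 control animals, which adds no support. Each of these calls was lost without at least 1 control animal: Dll1 without T4 (edgeR adjusted p = 0.121) or T8 (0.169), Hes5 without T8 (0.115) or T70 (0.0715), and Notch2 without T70 (0.0755).

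Notch1 ran the other way in controls, at 59.1, 51.2 and 48.7 CPM in caudal and 63.9, 60.2 and 59.1 CPM in rostral cortex. Its log2 fold change of -0.20 (SE 0.07) did not pass without the animal in the model (edgeR adjusted p = 0.102) and passed with the animal as replicate block (-0.21, SE 0.05, edgeR adjusted p = 0.0291), so that 4 members were called in that fit. Beside the receptor and ligand values, meningeal fibroblast markers had fold changes above 0 for 8 of 8 genes in control animals, 1 of them called by edgeR, summing to 416 to 507 CPM in caudal and 158 to 353 CPM in rostral cortex. The proneural list, with 5 of 8 genes called higher, summed to 70.5 to 90.0 CPM in caudal and 43.9 to 52.3 CPM in rostral cortex. The astrocyte list, with 1 of 12 genes called higher and 2 lower, summed to 2452 to 2796 CPM in caudal and 2255 to 2504 CPM in rostral cortex. The part of these cells in the regional values was not tested.

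In cKO animals no member passed between the pieces (edgeR, 0 of 10 at an unadjusted p under 0.05, DESeq2 0), where edgeR called 0% and DESeq2 0.0191% of genes, and 1.66% of genes had an unadjusted p under 0.05. Dll1 was the only member whose cKO groups did not overlap, at 11.7, 10.7 and 11.4 CPM in caudal and 10.3, 5.70 and 8.13 CPM in rostral cortex of T3, T6 and T80. Its log2 fold change of 0.48 (SE 0.22, edgeR adjusted p = 1) had the size seen in control but a larger error. Groups did not overlap for 5.76% of all genes in this comparison, 2.65% higher and 3.11% lower. Within cKO animals the difference depended on the animal. In T6 the caudal piece was above the rostral piece by 2.02 for Notch2, 1.73 for Hes5 and 1.17 for Jag1 (log2 CPM), and in T3 it was below it by -0.86, -0.20 and -0.98. In T80 the same differences were 0.08, 0.22 and 0.06.

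**Figure D5:**
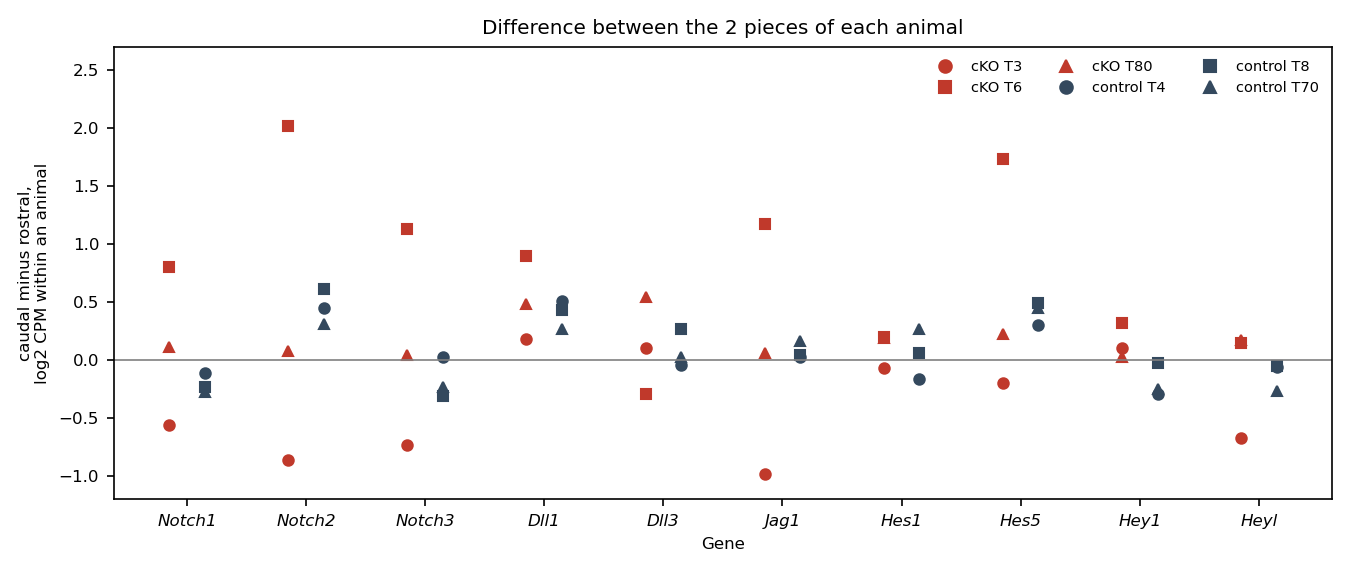
Difference between the caudal and the rostral library of each animal in log2 CPM, cKO animals (red) left of controls (dark blue-grey) for each gene. Control animals stay between -0.31 and 0.61, while T3 and T6 spread from -0.98 to 2.02. For Hey1 the 3 cKO animals lie above 0 and the 3 controls below it.

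The third comparison asks whether the genotype difference itself differed between the pieces. No member passed the interaction test on all 12 libraries (edgeR, adjusted p = 1 for all 10, 0 called by DESeq2, against 0% of all genes in edgeR and 0.0675% in DESeq2). Hey1 was the 1 member with an unadjusted p under 0.05, where 3.55% of all genes had one. Its interaction was 0.35 on the log2 scale (SE 0.13, unadjusted p = 0.0246, edgeR adjusted p = 1). Between the pieces of an animal, Hey1 was higher in caudal cortex in 3 of 3 cKO animals (0.10, 0.32 and 0.03 for T3, T6 and T80) and lower in 3 of 3 controls (-0.29, -0.03 and -0.25 for T4, T8 and T70). Such a split was not counted over all genes. In T3 the rostral piece had the higher regional score, at 0.855 against 0.563, and whether piece position had a part was not tested. The interaction of Notch2 was -0.17 with a standard error of 0.56, so a difference of the size of its regional fold change in control animals was not detectable.

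The rest of the pathway was followed with 51 further genes, of which 49 were tested. The repressors Hes2 and Hes3, with at most 3 and 5 counts in any library, were not. Between genotypes 0 of 49 passed in edgeR in either piece or on summed counts. DESeq2 called 1 in rostral cortex, 4 in caudal cortex and 2 on summed counts, against 1.91%, 2.83% and 3.72% of all genes. An unadjusted p under 0.05 was found for 3 in rostral cortex, 12 in caudal cortex and 7 on summed counts, against 9.49%, 14.5% and 15.4% of all genes. The median log2 fold change of the 49 was -0.01 in rostral and caudal cortex and -0.04 on summed counts. Nearest to the threshold was Dner, a Delta-like ligand of neurons, at 338, 349 and 333 CPM in cKO caudal cortex (T3, T6, T80), against 510, 457 and 441 CPM in control (T4, T8, T70). Its log2 fold change was -0.46 (SE 0.07, edgeR adjusted p = 0.0756), and the groups did not overlap. Lfng, the Fringe glycosyltransferase that changes which ligand a Notch receptor answers to, was at 11.9, 4.81 and 8.90 CPM in cKO rostral cortex, against 16.5, 17.5 and 16.5 CPM in control. On summed counts Lfng had a log2 fold change of -0.60 (SE 0.11, edgeR adjusted p = 0.0978).

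Among the nuclear partners, Maml3, a Mastermind coactivator of the RBPJ complex, was at 13.2, 20.0 and 12.3 CPM in cKO caudal cortex, against 7.85, 7.20 and 7.38 CPM in control (log2 fold change 1.02, SE 0.18, edgeR adjusted p = 0.104). In rostral cortex it was at 12.6, 42.9 and 11 CPM in cKO, against 12.4, 11.1 and 10.2 CPM in control, and the groups overlapped (log2 fold change 0.98, SE 0.51, edgeR adjusted p = 0.551). Rbpj itself was at 40.5, 45.6 and 45.3 CPM in cKO caudal cortex, against 35.2, 35.8 and 38.9 CPM in control, and its log2 fold change on summed counts was 0.22 (SE 0.08, edgeR adjusted p = 0.274). The other genes with the smallest p between genotypes were Fbxw7 (0.24), the ubiquitin ligase subunit that marks the Notch inner part for breakdown, and the HLH repressor Id3 (-0.43) in caudal cortex. In rostral cortex they were Dlk1 (1.99), a non-canonical Delta-like protein, Nrarp (-0.42), a feedback inhibitor, and Mib1 (-0.16), the ligase that activates ligands. None of them passed in edgeR, with adjusted p of 0.184 to 0.543. Dlk1 was near the floor, at 0.275 to 0.368 CPM in control rostral cortex and at most 1.90 CPM in any library.

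Between the control pieces 11 of the 49 passed, 4 higher and 7 lower in caudal cortex, against 12.2% of all genes. The higher ones were Dlk1 (log2 fold change 1.90), Neurl1a (0.77), Psen2 (0.33) and Dner (0.23). The Dlk1 value rests on the same low control rostral levels of 0.275 to 0.368 CPM, as does its interaction below. Psen2 is a catalytic subunit of gamma-secretase, the protease that frees the inner part of Notch. The lower ones were Maml3 (-0.59), the endothelial receptor Notch4 (-0.40), Dtx4 (-0.37), Lfng (-0.31), Mib1 (-0.28), Eogt (-0.28) and Fbxw7 (-0.19), with edgeR adjusted p of 0.00244 to 0.0268 over the 11. In cKO animals 0 of 49 passed between the pieces in edgeR, and 0 had an unadjusted p under 0.05, against 1.66% of all genes. The smallest p there were those of Spen (-0.35), Mib2 (-0.15), Dtx4 (-0.23) and Nrarp (0.22). In the interaction 0 of 49 passed in edgeR and 2 had an unadjusted p under 0.05, against 3.55% of all genes. The smallest p in the interaction were those of Dlk1 (-2.03), Nrarp (0.42), Lfng (0.71) and Mib1 (0.19).

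The members fell into several patterns over the 12 libraries, described here by Pearson's r of log2 CPM. These libraries share animals in pairs, and the T6 rostral library is low for most members, so the values are a description. The most alike members were Notch2 and Jag1 (r = 0.92), Notch1 and Notch3 (0.85) and Dll1 and Hes5 (0.85), and the least alike were Hey1 and Heyl (-0.52). Candidates were 13262 genes with a mean of at least 1 CPM, leaving out sex-linked genes and symbols of gene-model or clone type. Among them the 3 nearest to Notch2 were Aldh1a2 (0.992), Islr (0.992) and Igf2 (0.990), of which Islr is on the meningeal fibroblast list. Nearest to Notch3 were Slc38a3 (0.972), Eng (0.964) and Robo4 (0.962), and to Jag1 Tns1 (0.970), Hic1 (0.953) and Tcn2 (0.951). Nearest to Hes5 were Phgdh (0.982), Btbd17 (0.980) and Zfyve21 (0.978), and to Hey1 Fgfbp3 (0.946), Pllp (0.937) and Meox1 (0.936). Notch1 was nearest to Cpt1a (0.935), Foxf2 (0.924) and Dock1 (0.923), and Dll1 to Slc35f5 (0.946), Rpa1 (0.942) and Dr1 (0.939). The lowest first-ranked values were those of Dll3, Hes1 and Heyl: Dll3 with Ckmt1 (0.934), Efcab7 (0.917) and Mal2 (0.876), Hes1 with Yif1a (0.911), Rpl18-ps2 (0.902) and Sema6b (0.900), and Heyl with Nfat5 (0.911), Cflar (0.897) and Ranbp10 (0.890).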

How the data were processed

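The deposited files hold expected counts per gene for 12 libraries. Per the submitters' processing notes, STAR 2.7.8a and featureCounts 2.0.3 were used on GRCm39. For the annotation release, strand setting and shared reads, the notes give nothing (not given in the sources used here). Between 9.69% and 14.3% of the authors' deposited count values per library were fractional, and all were rounded before testing, since the test was planned for whole counts. The exonic lengths are those of the files.

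Each comparison was fitted in edgeR 4.0.16 (R 4.3.3) over all genes of its own libraries, with filterByExpr, TMM scaling and the robust quasi-likelihood F test and Benjamini-Hochberg adjusted p under 0.05 as the call. The test was run on simulated counts for the rostral and summed genotype comparisons and the control region comparison. These counts had the same dispersion for every gene and no deviant library. The check therefore does not cover the other comparisons or groups with a library like that of T6 rostral. DESeq2 1.42.0, RLE scaling, no filter, covariates, the animal as replicate block and each animal left out were alternatives. The standard error is the log2 fold change divided by the root of F. In the genotype comparisons p-values measure the spread between animals, 3 per genotype. In the region and interaction fits without the block they measure the spread between libraries. There the libraries of an animal enter as separate units. Log2 CPM used a prior count of 3.

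A T number shared by a caudal and a rostral library in the labels was taken to mark 1 animal. Deviations of the 2 libraries from their group means correlated at 0.247 to 0.333 in controls and at 0.0307 (T3), -0.00278 (T6) and 0.461 (T80) in cKO. The labels give no litters, and the region and interaction fits without the block leave the pairing out.

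The members and gene lists were chosen with earlier results of these data known. Named were all 10 members, Egfr, the pathway genes past the threshold or with the 4 smallest p in each comparison, and the 3 genes most correlated with each member. Markers and a few library values were named beside results after their values were seen.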

Additional observations from a re-analysis of the deposited data

Results flagged for a closer look

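Hey1 was set apart because its difference between the pieces ran opposite ways in the genotypes: caudal was above rostral cortex in all 3 cKO animals and below it in all 3 controls. Only the members were searched for such a split, and its share over all genes was not counted. The interaction, cKO minus control, was 0.35 on the log2 scale (SE 0.13, unadjusted p = 0.0246, edgeR adjusted p = 1), and 0.34 with the animal as replicate block. Leaving out 1 animal gave 0.27 (without T6) to 0.42 (without T8). The differences of T80 (0.03) and T8 (-0.03) were close to 0. On the regional score, where control rostral cortex averaged 0 and control caudal cortex 1, T3 had 0.855 in its rostral and 0.563 in its caudal piece. T80 had 0.639 and 0.810, and T6 -0.0791 and 1.15. Whether piece position had a part in the Hey1 differences was not tested.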

How the results depend on the processing

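Of 60 member fold changes under settings that kept all animals, 255 of 270 values kept direction and side of the threshold, 10 became calls and 5 changed sign. The sign changes were -0.02 for Notch1 and -0.15 for Jag1 between genotypes in caudal cortex with sex as a covariate, and, in the interaction with the animal as replicate block, 0.02 for Dll3, 0.01 for Jag1 and 0.15 for Hes5. None of the changed signs passed, and the cause was not tested.

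Calls over all genes moved with the tool. DESeq2 called 394 in rostral cortex, 517 in caudal cortex, 803 on summed counts, 4 between cKO pieces and 14 in the interaction. Without a filter on low counts the numbers were 45, 326 and 320 between genotypes and 2 in the interaction. With the T number range as a covariate they were 1, 5 and 20, and with sex 2 in caudal cortex and 1 on summed counts. Members called between genotypes were 1, 1 and 4 with DESeq2, and 1 in caudal cortex (Hes5) and 1 on summed counts (Hey1) without the filter. The replicate block called 3144 genes between control pieces, against 2492 without it, and changed no member's call but that of Notch1. 

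With 1 animal left out, genes called ran from 0 to 1058 in rostral cortex, 0 to 162 in caudal cortex, 1 to 685 on summed counts, 1079 to 1690 between control pieces and 0 to 475 in the interaction, the highest genotype and interaction counts being those without T6. Members called ran from 0 to 3, 0 to 1, 0 to 2 and 1 to 4 in the first 4 of these. Fold changes whose sign turned were, in rostral cortex, Notch2 (-0.11 to 0.54), Dll1 (-0.42 to 0.00) and Jag1 (-0.23 to 0.36); in caudal cortex, Notch1 (-0.16 to 0.25), Notch2 (-0.22 to 0.24) and Jag1 (-0.15 to 0.24); and on summed counts Notch2 (-0.14 to 0.17). Between control pieces they were Dll3 (-0.00 to 0.15) and Hes1 (-0.05 to 0.16). Between cKO pieces they were Notch1 (-0.22 to 0.47), Notch2 (-0.30 to 0.79), Notch3 (-0.29 to 0.53), Dll3 (-0.12 to 0.30), Jag1 (-0.42 to 0.56), Hes5 (-0.00 to 0.81) and Heyl (-0.24 to 0.17). In the interaction they were Notch1 (-0.01 to 0.67), Notch2 (-0.75 to 0.34), Notch3 (-0.13 to 0.68), Dll1 (-0.07 to 0.28), Dll3 (-0.20 to 0.21), Jag1 (-0.49 to 0.48), Hes1 (-0.06 to 0.16), Hes5 (-0.41 to 0.40) and Heyl (-0.12 to 0.29).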
